A study of Mus musculus with 6 samples.

Results

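The genes of integrins, laminins and their basement membrane partners were compared between wild-type and fluoride-resistant cells of the mouse osteoblast-like line MC3T3-E1. Members were taken by gene name and not by their values: 26 integrin subunits, 11 laminin chains, the nidogens Nid1 and Nid2, and perlecan (Hspg2), in all 40 of the 54433 genes in the deposited table. Of these, 28 had enough counts to test, among 14889 tested genes. RNA sequencing was done on 6 libraries, 3 of each group. The group WT holds wild-type cells kept in Dulbecco's modified Eagle medium and labelled as control. The group FR holds cells of the same line that were labelled resistant to 30 ppm fluoride and as treated with a gradient of 30 ppm fluoride, after adaptation in a gradient of 10 ppm. All cells were grown with fetal bovine serum. Being resistant and being exposed to fluoride cannot be told apart in this design. The protocol speaks of clones without saying whether FR is 1 clone. Nothing in the labels tells if replicate libraries stem from different dishes, so p-values measure only the spread between these libraries, which may be technical.

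Integrins are receptors made of an alpha and a beta subunit that bind matrix outside the cell and link it to actin inside. The alpha subunit largely sets the ligand: some alpha subunits bind collagens, some laminins, and some the Arg-Gly-Asp (RGD) motif of proteins such as fibronectin and vitronectin. Laminins are trimers of an alpha, a beta and a gamma chain that polymerise into basement membrane, where nidogens and perlecan connect them to the type IV collagen network. In bone-forming cells, integrins carry adhesion to the collagen-rich matrix and to fibronectin.

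The deposited counts summed to 19246119 to 27140662 per library, and 3 counts in a library corresponded to 0.110 to 0.156 CPM (counts scaled to library size with TMM factors). Differences of FR from WT were tested with edgeR over all genes, and a gene is called here when its adjusted p is under 0.05. Such calls were common: 70.1% of all tested genes were called, 34.6% higher and 35.5% lower in FR, while 7.4% were called and at least 2-fold higher and 11.4% called and at least 2-fold lower. How many of all tested genes had groups without overlap was not counted, so a lack of overlap is a description only. Of the osteoblast markers, Ibsp had no count in any library, and Sp7, Alpl and Bglap were too low to test. Runx2, Spp1, Col1a1 and Col1a2 were present in every library and lower in FR, and the 8 markers summed to 15640 to 15940 CPM in WT and 4155 to 4203 CPM in FR. These are bulk samples, in which fewer cells of a type and less RNA per cell cannot be told apart.

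The collagen-binding integrin subunits Itga10 and Itga11 and both nidogens fell in FR, and laminin-binding integrin subunits rose. Among the 28 tested members, 12 were higher, 14 were lower and 2 (Itgb4 and Itgal) did not pass. The 26 called members are 92.9% of those tested, against 70.1% of all genes. At least 2-fold changes were found for 5 members upwards (17.9%, against 7.4% of all genes) and for 7 downwards (25.0%, against 11.4%). The median log2 fold change of the tested members was −0.12, and that of all tested genes was 0.00. Most members passed the filter on low counts in both groups in full (25 of 28). Itgb3 passed it through WT alone, Itgal through FR alone, and Itga11 through WT with 1 FR library, so these members had to be high in 1 group to be tested at all.

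**Figure D1:**
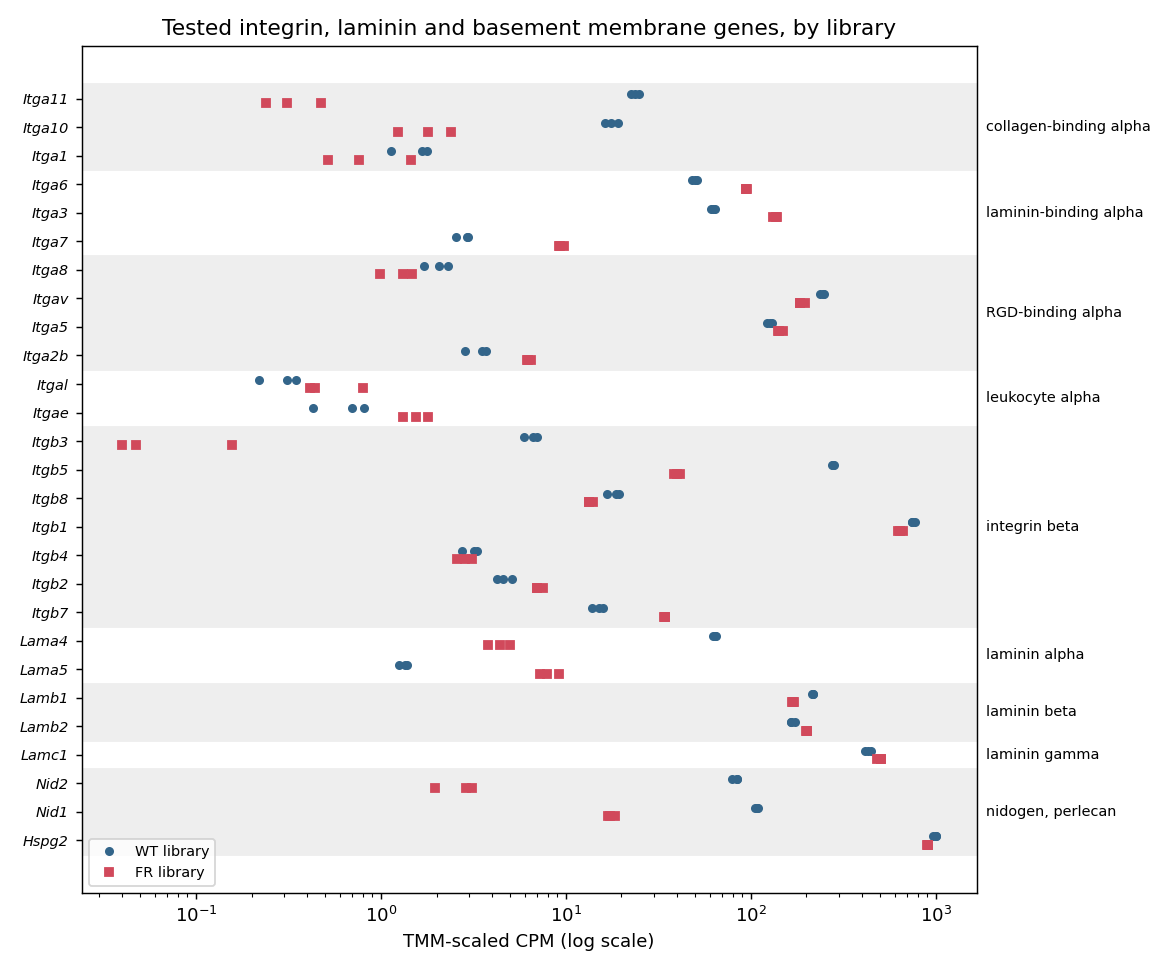
Level of the tested members in each library, for those reported here, in TMM-scaled CPM on a log axis, with WT libraries as circles and FR libraries as squares, grouped by role. Libraries of a group lie close together except at low levels, and the groups are widest apart for Itgb3, Itga11, Nid2 and Lama4, which are lower in FR.

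Both nidogens fell. Nid1 (ENSMUSG00000005397), the more broadly expressed nidogen in most tissues, had 108, 109 and 106 CPM in WT replicates 1 to 3 and 16.9, 18.5 and 17.4 CPM in FR. Every FR library was below every WT library, a 6.10-fold difference (log2 fold change −2.61 ± 0.05 SE, edgeR adjusted p = 1.47e-27). Nid2 (ENSMUSG00000021806) was at 84.2, 79.6 and 84.4 CPM in WT and at 3.12, 1.96 and 2.88 CPM in FR, a 31.8-fold fall (−4.99 ± 0.08 SE, adjusted p = 1.52e-26). Per kb of gene length the WT levels of the nidogens were alike, at 17.7 ± 0.258 for Nid1 and 17.0 ± 0.555 CPM per kb for Nid2 (SD, n = 3 each). In FR they were 2.89 ± 0.139 and 0.544 ± 0.126 CPM per kb, so that Nid1 made up 81.3% to 88.4% of nidogen transcripts, against 50.2% to 52.3% in WT. Nid2 overlaps the gene Rtraf on the opposite strand in the GENCODE annotation. Rtraf had a mean of 112 CPM in WT, against 133 CPM in FR. Whether strand was kept in these libraries is not given in the sources used here.

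Perlecan, which carries heparan sulfate chains and binds nidogen and laminin, differed little. Hspg2 (ENSMUSG00000028763) was the member with the most counts and had 999, 973 and 1006 CPM in WT against 892, 911 and 913 CPM in FR. The FR libraries were all lower, by a factor of 1.10 (log2 fold change −0.13 ± 0.02 SE, edgeR adjusted p = 1.24e-05). Its level per length, 70.0 ± 1.24 CPM per kb in WT and 63.9 ± 0.805 CPM per kb in FR (SD, n = 3 each), was above that of either nidogen in both groups.

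Among laminins the alpha chains moved most. Lama4 (ENSMUSG00000019846), the alpha chain typical of mesenchymal and vascular laminins, was at 64.2, 62.2 and 65.2 CPM in WT and fell to 4.99, 4.44 and 3.78 CPM in FR. The groups were far apart, with a 14.6-fold difference (log2 fold change −3.86 ± 0.07 SE, edgeR adjusted p = 6.61e-27). Lama5 (ENSMUSG00000015647), the alpha chain of many epithelial and adult basement membranes, went the other way, from 1.39, 1.36 and 1.25 CPM in WT to 7.27, 7.91 and 9.21 CPM in FR. All 3 FR libraries were above all WT libraries, and the rise was 6.08-fold (2.60 ± 0.16 SE, adjusted p = 2.24e-14). It was the largest rise among the tested members. On the scale of CPM per kb, Lama4 was 98.1% to 98.4% of all laminin alpha chain transcripts in WT and 41.5% to 55.4% in FR, while Lama5 went from 0.997% to 1.14% up to 42.9% to 53.8%. The rise of Lama5 was small beside the fall of Lama4: the 5 alpha chains together summed to 10.5 to 11 CPM per kb in WT and 1.47 to 1.51 CPM per kb in FR. Lama1, Lama2 and Lama3 had between 0 and 13 counts in any library and were not tested.

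The main beta and gamma chains, which pair with either alpha chain, changed by less than 1.5-fold. Lamb1 (ENSMUSG00000002900) fell from 217, 215 and 216 CPM to 172, 169 and 166 CPM (log2 fold change −0.35 ± 0.03 SE), and Lamb2 (ENSMUSG00000052911) rose from 173, 165 and 165 CPM to 202, 199 and 202 CPM (0.26 ± 0.03 SE). The order of these chains per length was reversed: Lamb1 was at 37.4 ± 0.153 and Lamb2 at 29.7 ± 0.818 CPM per kb in WT, and they were at 29.3 ± 0.486 and 35.7 ± 0.326 CPM per kb in FR (SD, n = 3 each). Lamc1 (ENSMUSG00000026478), the gamma chain of most laminins, rose from 433, 413 and 450 CPM to 505, 505 and 484 CPM (0.20 ± 0.03 SE). The edgeR adjusted p of Lamb1, Lamb2 and Lamc1 was 7.52e-07 or smaller, and the libraries of the groups did not overlap for any of these chains. Summed over the 3 beta chains, CPM per kb was 66.5 to 68.3 in WT and 64.7 to 65.7 in FR. Lamc1 alone was at 56.7 ± 2.41 CPM per kb in WT and 65.3 ± 1.56 CPM per kb in FR (SD, n = 3 each). Lamb3 had 3 to 16 counts per library and Lamc3 had 2 to 6, and neither was tested.

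**Figure D2:**
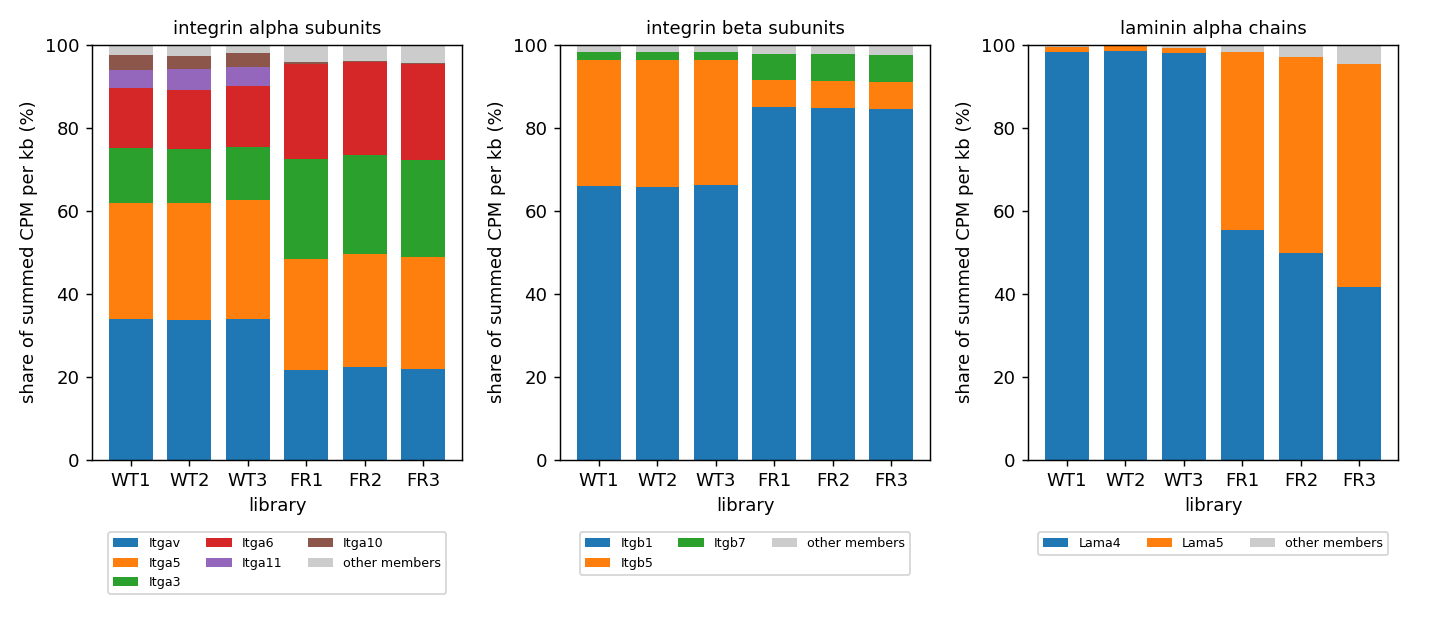
Share of each subunit in the summed CPM per kb of its class in each library, for integrin alpha subunits, integrin beta subunits and laminin alpha chains. In WT, Lama4 is over 98% of the laminin alpha chains, and in FR it shares the class with Lama5, while Itgb5 shrinks from 30.1% to 30.5% of the beta subunits to 6.52% to 6.61%.

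Turning to the receptors, Itga10 and Itga11 among the 3 tested collagen-binding alpha subunits fell, and Itga1 was lower but passed only narrowly. Of all tested genes, 35.5% were called lower. Itga11 passed the filter on low counts through WT with 1 FR library, so its direction adds nothing to a count of this class. Itga11 (ENSMUSG00000032243), a receptor of fibroblasts and osteogenic cells for fibrillar collagen, had 22.6, 24.8 and 23.7 CPM in WT and 0.312, 0.240 and 0.472 CPM in FR. In counts this was 1861 over the WT libraries against 22 over the FR libraries, a 70.4-fold ratio after scaling (exact 95% interval 46.3 to 113, counting error only). The fitted log2 fold change was −6.11 ± 0.16 SE (edgeR adjusted p = 1.44e-23). Itga10 (ENSMUSG00000090210), known from cartilage and its precursors, fell from 19.1, 16.3 and 17.6 CPM to 2.39, 1.24 and 1.80 CPM, with no overlap (−3.32 ± 0.15 SE, adjusted p = 4.82e-16). Itga1 (ENSMUSG00000042284), a collagen receptor of mesenchymal and smooth muscle cells, was low throughout, with 1.14, 1.78 and 1.68 CPM in WT and 1.45, 0.759 and 0.520 CPM in FR. Its groups overlapped, and it passed narrowly (−0.77 ± 0.33 SE, adjusted p = 0.0398). Itga1 did not pass when WT replicate 2 (adjusted p = 0.137), WT replicate 3 (0.118), FR replicate 2 (0.133) or FR replicate 3 (0.205) was left out. Pelo, which lies on the same strand within the span of Itga1, was at 15.2 CPM in WT and 19.4 CPM in FR. Itga2, the remaining collagen-binding subunit, had at most 1 count per library. The 4 collagen-binding subunits together were 8.12% to 8.43% of alpha subunit transcripts per length in WT and 0.296% to 0.552% in FR.

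The laminin-binding alpha subunits rose, all 3 of 3, where 34.6% of all tested genes were called higher. Itga3 (ENSMUSG00000001507), a receptor for laminins that contain the Lama5 chain, went from 64.0, 61.0 and 62.7 CPM to 137, 139 and 132 CPM, a 2.17-fold rise (log2 fold change 1.12 ± 0.04 SE, edgeR adjusted p = 2.24e-21). Itga6 (ENSMUSG00000027111), which binds a wide range of laminins, went from 50.1, 47.9 and 51.0 CPM to 94.5, 94.9 and 94.0 CPM, which is 1.90-fold (0.93 ± 0.04 SE, adjusted p = 1.02e-18). Itga7 (ENSMUSG00000025348), best known as the laminin receptor of muscle, went from 2.93, 2.95 and 2.54 CPM to 9.24, 9.35 and 9.73 CPM, a 3.36-fold rise (1.75 ± 0.13 SE, adjusted p = 8.55e-13). In each case every FR library was above every WT library. On the scale of CPM per kb these subunits summed to 27.8 to 29.1 in WT and 58.1 to 59.96 in FR, which is 28.0% to 28.3% and 48.1% to 48.9% of all alpha subunits. Itgb4, the beta subunit that pairs with Itga6 in hemidesmosomes, was at 3.19, 3.30 and 2.73 CPM in WT and 2.60, 3.12 and 2.83 CPM in FR. Those values overlapped and Itgb4 did not pass (−0.10 ± 0.18 SE, adjusted p = 0.618).

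RGD-binding alpha subunits differed by less than 2-fold, in both directions. Itgav (ENSMUSG00000027087), which binds vitronectin and the latency peptide of TGF-beta, was the alpha subunit with the highest level per length in WT. It fell from 245, 236 and 248 CPM to 185, 197 and 185 CPM (log2 fold change −0.36 ± 0.03 SE, edgeR adjusted p = 1.57e-11). Itga5 (ENSMUSG00000000555), of the main fibronectin receptor, rose from 126, 122 and 130 CPM to 141, 149 and 143 CPM (0.19 ± 0.03 SE, adjusted p = 5.94e-06). Per kb of length, Itgav was at 34.5 ± 0.879 in WT and 26.8 ± 0.976 in FR, and Itga5 at 28.8 ± 0.859 and 32.9 ± 0.885 CPM per kb (SD, n = 3 each). The 4 leading alpha subunits thus lay between 13.3 and 34.5 CPM per kb in WT and between 26.8 and 32.9 CPM per kb in FR, where the order was Itga5, Itga3, Itga6 and Itgav. There Itga3 (28.9 ± 0.844) and Itga6 (27.9 ± 0.141 CPM per kb), and likewise Itga6 and Itgav, were only about 1 SD apart. Itga2b (ENSMUSG00000034664), the platelet fibrinogen receptor subunit, was low and rose from 3.52, 3.69 and 2.85 CPM to 6.49, 6.19 and 6.28 CPM (0.91 ± 0.14 SE, adjusted p = 1.90e-06). Itga8, a receptor for nephronectin, was at 2.31, 2.06 and 1.72 CPM in WT and 0.987, 1.48 and 1.32 CPM in FR (−0.67 ± 0.25 SE, adjusted p = 0.0189). Its call was lost without WT replicate 1 (adjusted p = 0.0826) and without FR replicate 1 (0.0804). Gm37701 overlaps Itga8 on the same strand, with means of 2.49 CPM in WT and 2.99 CPM in FR.

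Of the 7 tested beta subunits, 4 fell, 2 rose and Itgb4 did not pass. Of all tested genes, 35.5% fell and 34.6% rose. The falls include Itgb3, which had to be high in WT to be tested. Itgb5 (ENSMUSG00000022817), which pairs with Itgav as a vitronectin receptor, fell from 275, 278 and 283 CPM to 41.3, 40 and 38.7 CPM. The groups were far apart, by 6.97-fold (log2 fold change −2.80 ± 0.03 SE, edgeR adjusted p = 3.39e-31, the smallest among the members). Itgb3 (ENSMUSG00000020689), the other classical vitronectin receptor partner of Itgav, was counted 162, 181 and 170 times in the WT replicates (5.94, 7.02 and 6.63 CPM) but 3, 1 and 1 times in those of FR. The ratio of these summed counts was 85.3 after scaling, with an exact 95% interval of 36.3 to 264 for counting error only. Fitted, it was −6.32 ± 0.31 SE (adjusted p = 7.01e-17), and −7.09 without FR replicate 1, which held 3 of the 5 FR counts. Itgb8, an activator of latent TGF-beta together with Itgav, fell from 18.7, 16.6 and 19.4 CPM to 14.0, 13.3 and 13.4 CPM (−0.43 ± 0.08 SE, adjusted p = 2.74e-05). Itgb1 (ENSMUSG00000025809), the shared partner of the collagen-binding and laminin-binding subunits, fell from 743, 748 and 776 CPM to 663, 643 and 626 CPM, a 1.17-fold difference (−0.23 ± 0.03 SE, adjusted p = 4.99e-09). Itgb1, Itgb5 and Itgb8, the beta partners of Itgav that passed the filter on low counts in both groups, were thus lower in FR. Itgb3 passed it through WT alone, so its direction adds nothing to that count. Itgb6, the fifth, was not tested: it was counted 6, 1 and 6 times in WT replicates 1 to 3 and 0 times in each FR library. Itgb1 made up 65.7% to 66.3% of beta subunit transcripts per length in WT and 84.6% to 84.9% in FR, and the beta subunits together went from 295 to 307 CPM per kb down to 194 to 205 CPM per kb. Alpha subunits together went from 99.3 to 104 CPM per kb up to 120 to 125 CPM per kb.

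Of the subunits best known from white blood cells, Itgb7, Itgb2 and Itgae passed and rose, and the others did not pass or were too low to test. Itgb7 (ENSMUSG00000001281), a homing receptor subunit of lymphocytes, was at 13.8, 15.9 and 15.1 CPM in WT and 34.5, 34.3 and 34.0 CPM in FR, a 2.30-fold rise (log2 fold change 1.201 ± 0.064 SE, edgeR adjusted p = 4.77e-16). Itgb2, the beta subunit of the leukocyte integrins, went from 5.09, 4.27 and 4.56 CPM to 7.01, 7.03 and 7.51 CPM (0.63 ± 0.12 SE, adjusted p = 6.25e-05). Itgae, a partner of Itgb7, rose from 0.806, 0.699 and 0.429 CPM to 1.56, 1.32 and 1.79 CPM (1.25 ± 0.32 SE, adjusted p = 0.000944). Haspin overlaps Itgae on the opposite strand, with means of 22.9 CPM in WT and 34.2 CPM in FR. Itga4, the other partner of Itgb7, had 0 to 7 counts per library, and Itga9 had 0 to 2. Itgal, a partner of Itgb2, lay between 0.220 and 0.349 CPM in the WT libraries and between 0.415 and 0.803 CPM in those of FR. It missed the threshold (0.90 ± 0.46 SE, adjusted p = 0.0790). The other partners of Itgb2 were lower still: Itgax was counted 0, 1 and 2 times in WT but 7, 5 and 5 times in FR, Itgam had at most 1 count per library and Itgad had 1 count in all. Next to the filter on low counts, Itgal was the member just inside (0.415 CPM in its third-highest library) and Lama2 the member just outside (0.390 CPM).

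**Figure D3:**
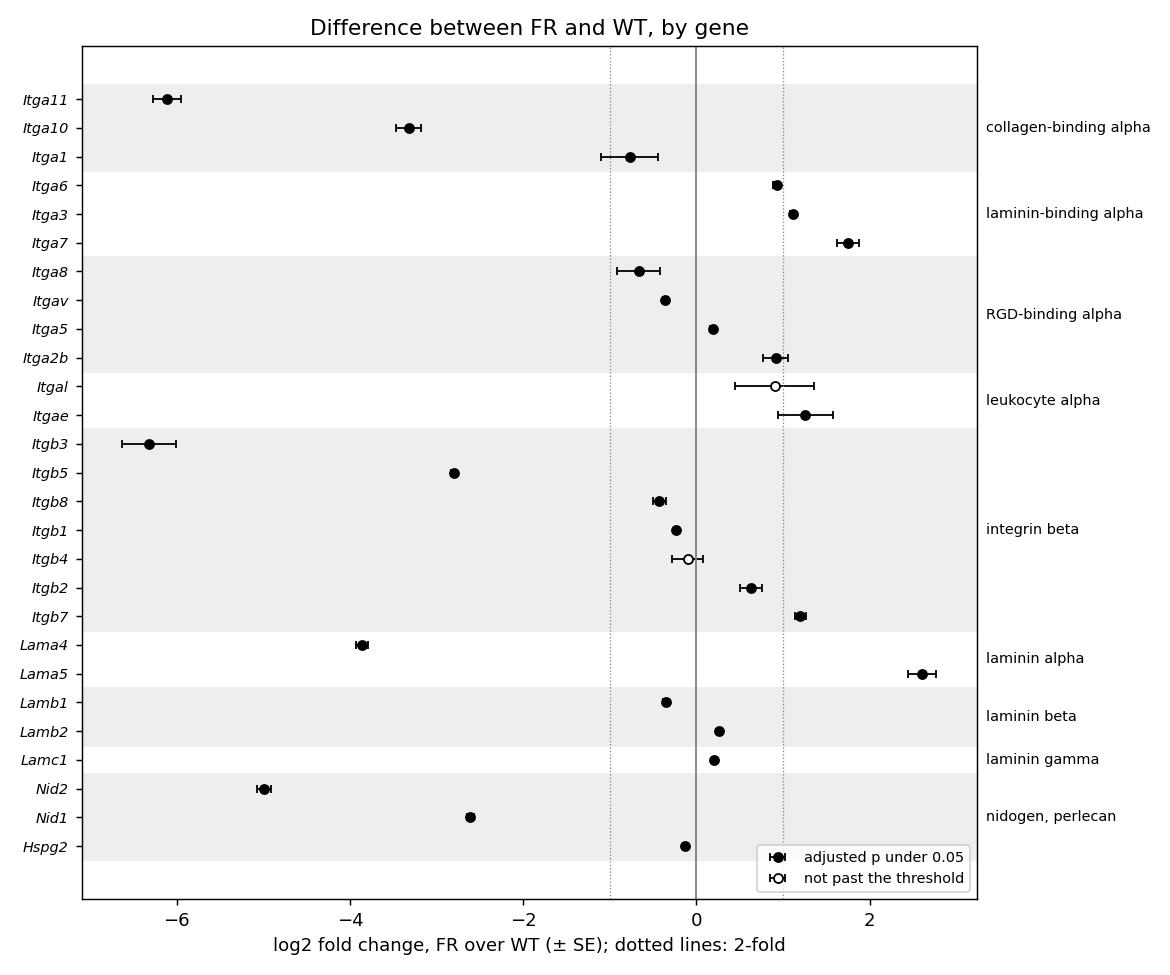
Log2 fold change of FR over WT for the tested members reported here, with the standard error of the edgeR fit as a bar, filled points where the adjusted p is under 0.05 and dotted lines at 2-fold. The collagen-binding subunits lie left of 0 and the laminin-binding subunits right of it, and Itgb4 and Itgal are the open points.

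Marker genes of other cell types were read beside these values. The 12 leukocyte markers summed to 19.2 to 21.3 CPM in WT and 20.7 to 25.8 CPM in FR, with Cd3e and Tyrobp at 0 in every library and the pan-leukocyte gene Ptprc at mean levels of 0.0388 CPM in WT and 0.174 CPM in FR. Within that list Csf1r (0.587 to 7.14 CPM) and Cd68 (0.467 to 2.26 CPM) rose and Lyz2 (6.15 to 1.54 CPM) fell. The largest part of the sum was Cd14 (mean 12.6 CPM in WT, 11.9 CPM in FR), which did not pass (edgeR adjusted p = 0.399). The 6 megakaryocyte and platelet markers summed to 6.01 to 6.67 CPM in WT, against 1.42 to 3.36 CPM in FR. Most of this sum came from Gp1bb (mean 4.38 CPM in WT, 1.10 CPM in FR) and Ppbp (1.575 and 0.695 CPM). Both of these genes fell, and the other 4 markers were too low to test. For skeletal muscle the sum of 8 markers went from 1.91 to 2.37 CPM up to 6.44 to 7.43 CPM, most of it the intermediate filament gene Des (mean 1.77 CPM in WT, 6.26 CPM in FR), and Myod1 was at 0 in every library. Endothelial markers (10 genes) summed to 4.62 to 5.13 CPM in WT and 3.87 to 5.45 CPM in FR with Cldn5 at 0, epithelial markers (10 genes) to 0.858 to 1.39 CPM and 0.614 to 1.44 CPM with Krt5, Krt19 and Cldn4 at 0, and Schwann and glial markers (6 genes) to 5.94 to 6.83 CPM and 3.17 to 4.39 CPM with Foxd3 at 0. Of the endothelial genes, Emcn fell (mean 2.91 CPM in WT, 1.30 CPM in FR, edgeR adjusted p = 3.62e-05). Vwf rose (0.838 and 1.845 CPM, edgeR adjusted p = 0.0012), and Cdh5 did not pass (edgeR adjusted p = 0.205). The part of the marker genes in the results above was not tested.

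For 25 of the 40 members a promoter window was found in RefSeq (GRCm38.p6), 7 of them called members with at least a 2-fold change. The 250 bases before the start are shown for 4 of these 7, because they hold collagen-binding subunits that fell together (Itga10, Itga11), the vitronectin receptor subunit of smallest adjusted p (Itgb5) and the largest rise (Lama5). Sequences run 5′ to 3′ on the strand of the gene, and capitals mark matches on either strand to any of 4 motifs: the GC box GGGCGG, the AP-1 element TGANTCA, the TEAD motif GGAATG and the RUNX motif TGTGGT, which do not overlap each other in these 4 windows.
Itga10, chr3:96645334-96645583, plus strand: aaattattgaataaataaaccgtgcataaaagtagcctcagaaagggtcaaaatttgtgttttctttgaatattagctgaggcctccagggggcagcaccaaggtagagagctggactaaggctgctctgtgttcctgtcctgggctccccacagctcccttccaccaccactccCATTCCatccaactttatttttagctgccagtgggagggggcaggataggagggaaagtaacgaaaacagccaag
Itga11, chr9:62677605-62677854, plus strand: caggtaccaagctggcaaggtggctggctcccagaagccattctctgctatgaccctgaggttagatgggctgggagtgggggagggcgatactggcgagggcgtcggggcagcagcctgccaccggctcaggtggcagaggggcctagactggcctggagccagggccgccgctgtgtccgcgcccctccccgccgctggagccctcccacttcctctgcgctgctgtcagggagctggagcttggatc
Itgb5, chr16:33829415-33829664, plus strand: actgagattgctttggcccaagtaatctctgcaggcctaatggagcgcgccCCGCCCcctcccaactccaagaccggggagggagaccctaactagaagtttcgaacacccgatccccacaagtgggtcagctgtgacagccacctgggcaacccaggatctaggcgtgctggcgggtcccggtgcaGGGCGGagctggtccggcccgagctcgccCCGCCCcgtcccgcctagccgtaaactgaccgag
Lama5, chr2:180225860-180226109, minus strand: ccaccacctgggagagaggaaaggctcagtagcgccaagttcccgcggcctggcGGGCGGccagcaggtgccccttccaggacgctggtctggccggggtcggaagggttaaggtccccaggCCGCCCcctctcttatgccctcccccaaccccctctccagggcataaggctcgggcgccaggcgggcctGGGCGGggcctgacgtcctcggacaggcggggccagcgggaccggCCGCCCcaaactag
Itga10 held 1 TEAD motif, Itgb5 held 3 GC boxes, Lama5 held 4, and Itga11 held none of the 4 motifs. The GC content was 48.0% for Itga10, 68.4% for Itga11, 65.2% for Itgb5 and 72.4% for Lama5, against a median of 52.4% over all 32851 windows. Over the 25 members with a window, GC boxes were found for 10, the TEAD motif for 4 (Itga10, Itgb1, Lamb3 and Nid1), the RUNX motif for 2 (Itga3 and Itga4) and the AP-1 element for 1 (Itgax). Of all windows, 32.7% held a GC box, 12.6% a TEAD motif, 14.0% a RUNX motif and 6.75% an AP-1 element. These are shares of single windows, while a member was counted if any of its windows held the motif. Itga3 had more than 1 window. A match is a description of letters in this window only.

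The genes that integrins and laminins work with were then counted in 4 lists. Among 32 tested genes of integrin activation and focal adhesions, 15 rose, 14 fell and 3 missed the threshold. Their median log2 fold change was 0.02. Over all tested genes, 34.6% rose and 35.5% fell. The actin crosslinker Actn1 (−0.70 ± 0.03 SE), the paxillin relative Tgfb1i1 (−0.78 ± 0.04) and the tensin Tns3 (−0.67 ± 0.03) fell, and the adaptor Bcar1 (0.58 ± 0.04), the scaffold Git1 (0.47 ± 0.03) and the caveolin Cav1 (0.31 ± 0.02) rose. Changes of at least 2-fold were found for 3 of the 32 (9.38%, against 18.8% of all genes), which are named here after their values were seen: the kinase Ptk2b fell from 13.0 ± 0.204 to 2.45 ± 0.432 CPM, and the blood cell kindlin Fermt3 (0.230 ± 0.0715 to 1.52 ± 0.265 CPM) and the parvin Parvg (0.253 ± 0.0885 to 0.577 ± 0.0601 CPM) rose from low levels (SD, n = 3 each). Fermt3 and Parvg passed the filter through FR alone, so they had to be high there to be tested.

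Of 18 tested genes for non-integrin laminin receptors and the dystroglycan complex, 10 fell, 6 of them at least 2-fold, 5 rose and 3 missed the threshold. Over all tested genes, 35.5% fell and 34.6% rose. The falls of at least 2-fold were 33.3% of the list, against 11.4% of all genes, but 2 of these 6 (Sgce and Dmd) passed the filter through WT alone and had to be high there to be tested. The median log2 fold change was −0.32. Dystroglycan itself, Dag1, which binds laminin and perlecan, changed little (335 ± 8.52 to 296 ± 2.65 CPM, SD, n = 3 each; −0.18 ± 0.03 SE). The sarcoglycan Sgce fell from 13.6 ± 0.769 to 0.303 ± 0.0382 CPM and the sarcoglycan Sgcb from 80.5 ± 1.29 to 36.0 ± 0.585 CPM (SD, n = 3 each). Dystrophin (Dmd), singled out after its values were seen, was at 9.52 ± 0.526 CPM in WT (SD, n = 3) and at 0 counts throughout FR. With 3 counts in each FR library as the floor, it was at least 68.4-fold lower. Dmd was the largest fall of the list at this bound too, so the list median of −0.32 could not change. Its homologue Utrn rose slightly (0.14 ± 0.03), as did the tetraspanin Cd151 (0.15 ± 0.03), a partner of Itga3.

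Other basement membrane components gave 7 falls and 3 rises among 11 tested (median log2 fold change −0.38). Of all tested genes, 35.5% fell and 34.6% rose. The matrix protein gene Sparc fell from 1655 ± 13.6 to 685 ± 9.04 CPM, and the type IV collagen chains Col4a1 (303 ± 7.55 to 191 ± 1.98 CPM) and Col4a2 (229 ± 3.99 to 147 ± 1.85 CPM) also fell. The proteoglycans Agrn (86.1 ± 2.42 to 172 ± 1.70 CPM) and Col18a1 (9.54 ± 0.327 to 20.7 ± 0.615 CPM) rose, as did the peroxidase Pxdn, which crosslinks type IV collagen (252 ± 5.92 to 290 ± 3.50 CPM; SD, n = 3 each). Ligands of integrins, mainly of the interstitial matrix, gave 12 falls and 3 rises among 15 tested (median −1.42). Of the falls, 9 were at least 2-fold (60% of the list, against 11.4% of all genes). The list also holds the cell-surface gene Vcam1 (−1.46 ± 0.03) and the cytokine genes Tgfb1 (−0.66 ± 0.07) and Tgfb3 (−1.42 ± 0.06), which fell. The collagen chains Col1a1 (−2.99 ± 0.02) and Col1a2 (−1.58 ± 0.02) and the fibrillin Fbn1 (−3.81 ± 0.06) fell, while Mfge8, an Itgav ligand (0.66 ± 0.03), the tenascin Tnc (0.50 ± 0.03) and the thrombospondin Thbs1 (0.11 ± 0.03) rose. All calls in these lists are by edgeR with adjustment over all genes, and the lists were chosen with results of these data known.

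**Figure D4:**
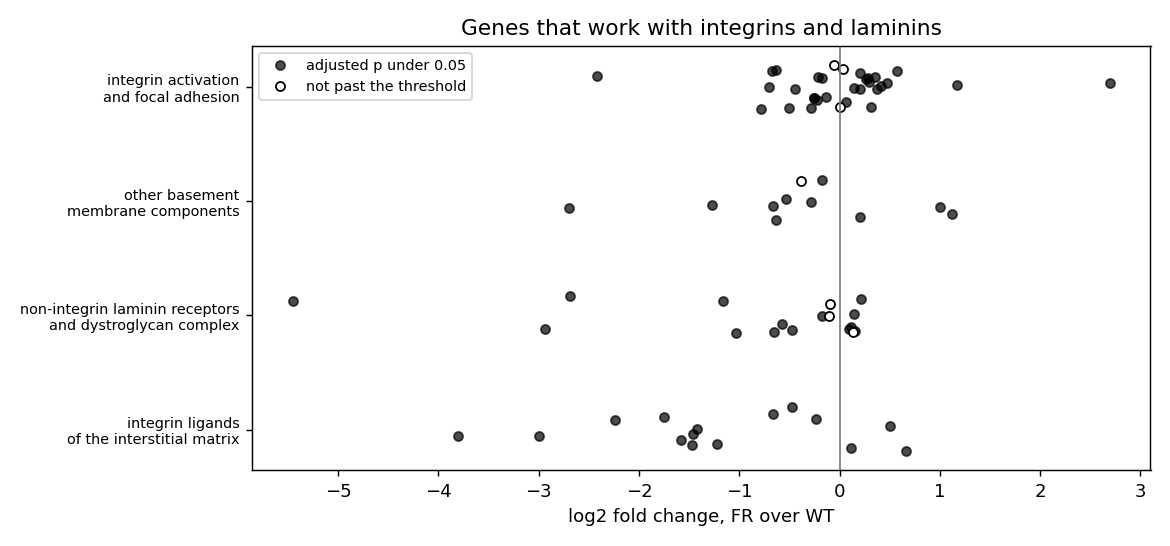
Log2 fold change of FR over WT for the tested genes of 4 lists, each point a gene, filled where the adjusted p is under 0.05; vertical scatter within a list has no meaning, and Dmd, with no count in FR, is not drawn. Focal adhesion genes lie around 0, with a median of 0.02, and integrin ligands lie mostly to the left, with a median of −1.42.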

How the data were processed

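Per the labels' protocols, poly(A) RNA was sequenced as paired-end reads, and per the submitters' processing notes the authors used fastp, HISAT and RSEM with the build GRCm39 (versions, settings and annotation release are not given in the sources used here). The authors deposited expected counts per gene for each of the 6 libraries, not scaled to depth, together with a gene length in bases. RSEM estimates how ambiguous reads divide among genes, and 8 of the 40 members had a value that was not whole. Expected counts were rounded. Genes were kept by filterByExpr (about 10 counts in at least 3 libraries, here 0.393 CPM), scaled with TMM factors and tested with the robust quasi-likelihood test of edgeR 4.0.16 (R 4.3.3), FR against WT, with Benjamini-Hochberg adjustment over all 14889 tested genes and a threshold of 0.05. The standard error is the log2 fold change divided by the root of the F statistic. Levels are compared between genes only as CPM per kb of the deposited length. As a floor for genes without counts, 3 counts per library were chosen, and intervals cover counting error only. The fit was tested on simulated counts in which few genes changed, as many up as down. Here 70.1% of tested genes were called, so that simulation does not check the scaling under such broad change. Within a group, pairs of libraries gave chi-square values of 2.33 to 3.37 per degree of freedom, so none is a copy of another.

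A few genes are not reported here by name. For the others, values in every library are given for members called with at least a 2-fold change and for the most abundant of each role, counts for those not tested, and for each partner list the 3 genes of smallest adjusted p in each direction. The members, the partner lists and the marker lists (osteoblast, leukocyte, endothelial, epithelial, skeletal muscle, megakaryocyte and platelet, Schwann and glial) were chosen with earlier results of these data known. The alternatives were median-of-ratios size factors, no filter, a filter at a mean of 1 CPM, DESeq2 1.42.0, limma-voom (limma 3.58.1), the replicate number as a block and each library left out. The files give no positions. GENCODE M21 (GRCm38, another build) served only to find overlapping genes, and all 40 members were found in it. Promoter windows are from RefSeq GRCm38.p6. Plots use matplotlib 3.10.9 (Python 3.11.15).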

Additional observations from a re-analysis of the deposited data

How the results depend on the processing

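Of the 28 tested members, 26 kept their direction and their side of the threshold under each of the 12 alternatives that gave them a value, and none reversed. Itgal had no value with a filter at a mean of 1 CPM. The exceptions were Itga1 and Itga8. DESeq2 called 24 members and neither of these (adjusted p = 0.0907 for Itga1 and 0.0562 for Itga8), and Itga1 was also lost in 4 and Itga8 in 2 of the 6 fits that left out 1 library. Leaving out a library gave 25 called members each time and 9968 to 10221 called genes. The count of members called with at least a 2-fold change was 12 in most settings, 13 without FR replicate 1 and 14 with no filter. With no filter, 28 members were called, with Itgax (log2 fold change 2.60, edgeR adjusted p = 0.0232) and Itgb6 (−5.04, adjusted p = 0.00891) added, both on counts too low for the reported test. Summed level per length over the members was 643 CPM per kb in WT and 522 CPM per kb in FR with either scaling. WT and FR libraries with the same replicate number did not deviate together (correlations of −0.028 to −0.0039). Those with other numbers gave −0.02 to 0.0368. The labels do not say if equal numbers mark libraries handled together, and these values cannot exclude it. With the replicate block, 25 members and 10292 genes were called, and Itga1 (adjusted p = 0.0531) was the member lost. The 12 members that were not tested fell under the filter of about 0.393 CPM in 3 libraries, and 3 counts correspond to 0.110 to 0.156 CPM.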

Other observations

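In the pathway annotation deposited with the table, 32 of the 40 members carried the term ECM-receptor interaction, which lists receptors and their matrix ligands. Of the other genes with that term, 38 were tested, of which 22 fell and 10 rose (edgeR), with a median log2 fold change of −0.38, against −0.13 for the 23 tested members that carry it. For the term Focal adhesion the 22 tested members had a median of −0.17, and the other genes, with 76 falls and 41 rises among 145 tested, one of −0.15. For Regulation of actin cytoskeleton the medians were −0.10 over 19 tested members and −0.11 over 148 other genes, of which 78 fell and 40 rose. These terms share genes with each other and with the lists above, so their counts are not independent. Of all tested genes, 35.5% were called lower in FR and 34.6% higher.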
